A study of Mus musculus with 4 samples.

Results

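Dnase2b, Pla2g16, Casp6 and Casp9 encode enzymes tied to the loss of nuclei and organelles from lens fiber cells, or to the caspase cascade that resembles it. The 4 genes were taken by symbol from a table of 10790 genes, and each matched 1 row. RNA came from whole lenses of mice at postnatal day 4, either Tdrd7 null (Tdrd7 -/-) or wild type control, with 2 libraries per genotype and 15 lenses pooled in each. Tdrd7 encodes a Tudor-domain protein of RNA granules that is mutated in congenital cataract, and the study asked how its loss changes lens RNA. The sources used here name neither the strain, the sex nor the position of the targeted change, and no treatment or further allele for either genotype.

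A lens fiber cell clears its own path for light. As it matures it breaks down its nucleus, mitochondria and endoplasmic reticulum and yet stays alive. DNase IIβ, the product of Dnase2b, is a lysosomal acid nuclease that digests the DNA of fiber nuclei, and mice without it keep undigested nuclei and develop cataract. Pla2g16, now named Plaat3, encodes a phospholipase that opens organelle membranes in fiber cells. Caspase-9 is the initiator caspase that is activated on the apoptosome, a complex of Apaf1 and released cytochrome c, and caspase-6 is an effector caspase that cleaves lamin A. The heat shock factor HSF4, expressed in fiber cells, is known to activate Dnase2b in the lens.

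The upstream sequences below show what the 4 genes do and do not share. Hsf4, the regulator of Dnase2b named above, was lower in null lenses, a call that was lost with the GC content trend removed or without either control library. A link between Hsf4 and the levels of the 4 genes was not tested. The sequences run from 250 bases before to 50 bases after the RefSeq start site on GRCm38.p6. All 4 genes matched an entry, Pla2g16 under the symbol Plaat3. For Pla2g16, which had 2 entries, the first is given. Windows lie at chr3:146615549-146615848 on the minus strand for Dnase2b and, on the plus strand, at chr19:7557209-7557508 for Pla2g16, chr3:129901165-129901464 for Casp6 and chr4:141793362-141793661 for Casp9. Capitals mark matches, on either strand, to the heat shock element letters GAANNTTC or the GC box GGGCGG.
Dnase2b: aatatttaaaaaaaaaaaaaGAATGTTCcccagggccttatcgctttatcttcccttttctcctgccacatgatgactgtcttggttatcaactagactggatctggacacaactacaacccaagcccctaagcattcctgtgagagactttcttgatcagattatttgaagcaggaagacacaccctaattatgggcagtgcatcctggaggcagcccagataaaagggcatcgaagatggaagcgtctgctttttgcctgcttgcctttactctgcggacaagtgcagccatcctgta
Pla2g16: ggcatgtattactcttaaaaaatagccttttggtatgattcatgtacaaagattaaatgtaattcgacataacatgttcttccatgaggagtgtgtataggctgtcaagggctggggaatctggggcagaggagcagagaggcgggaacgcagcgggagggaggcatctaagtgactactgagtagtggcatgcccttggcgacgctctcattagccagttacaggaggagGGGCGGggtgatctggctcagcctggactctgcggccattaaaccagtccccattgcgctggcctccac
Casp6: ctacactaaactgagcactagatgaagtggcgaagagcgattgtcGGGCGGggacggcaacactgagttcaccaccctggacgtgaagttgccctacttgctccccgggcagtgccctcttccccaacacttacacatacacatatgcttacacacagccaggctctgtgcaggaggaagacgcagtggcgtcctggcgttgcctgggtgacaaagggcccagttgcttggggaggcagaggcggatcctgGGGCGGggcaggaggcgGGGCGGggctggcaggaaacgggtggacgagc
Casp9: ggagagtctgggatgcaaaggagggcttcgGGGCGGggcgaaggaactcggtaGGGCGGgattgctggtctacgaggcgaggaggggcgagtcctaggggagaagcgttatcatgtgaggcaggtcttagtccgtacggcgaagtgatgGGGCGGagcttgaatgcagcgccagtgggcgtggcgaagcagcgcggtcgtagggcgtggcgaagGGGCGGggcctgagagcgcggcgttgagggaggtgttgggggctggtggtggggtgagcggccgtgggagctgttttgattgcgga
The heat shock letters occurred once, as GAATGTTC between 230 and 223 bases upstream of the Dnase2b start, and in none of the other windows. Of all 32851 windows of that length 7.86% held these letters. The GC box occurred 0 times in the Dnase2b window, once in that of Pla2g16, 3 times in that of Casp6 and 4 times in that of Casp9, and 35.7% of all windows held at least 1. The windows held 4, 9, 16 and 28 CpG dinucleotides in that order, against a median of 7 over all windows, and 31.4%, 54.2%, 67.0% and 85.8% of all windows held fewer. A match is a description of letters and not a bound site. The deposited table gives Dnase2b a gene end at 146596612, while the RefSeq start used here lies at 146615598 and GENCODE M21 starts the gene at 146615596. The deposited gene model was therefore shorter at its upstream end. Which start the lens uses cannot be read from the table, so the Dnase2b window may not be the one in use there.

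Values are given as scaled reads: each library's counts were divided by a single factor, and gene length was not taken into account. Reads in listed genes, inferred from the step between values, came to 39080159 and 33920522 in the Tdrd7 null libraries and 41096488 and 42767535 in the control libraries. Tdrd7 itself stood at 165 and 96.6 scaled reads in the null libraries, against 1188 and 972 in control, so the label and the gene went together in all 4 (log2 fold change -3.08). In limma's test across 10696 genes with Benjamini-Hochberg adjustment, 18.0% of genes were called at an adjusted p under 0.05, 1077 (10.1%) higher and 843 (7.88%) lower. With the libraries set to an equal total outside the crystallins the split was 766 higher and 1262 lower. Fold changes fell with the GC content of transcripts, so each is also given after removal of the dependence on transcript GC content and length, library by library. That left 3.29% of genes called, 2.06% higher and 1.24% lower. Without the intensity trend in limma's prior 16 genes were called, so the number of calls depends on that trend.

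Dnase2b, the fiber nuclease, was abundant and did not pass the test. It stood at 130.8 and 130.7 scaled reads in the Tdrd7 null libraries, against 126.8 and 124.0 in the control libraries. Both null pools lay above both control pools, as the groups did not overlap, but so it was for 61.5% of all tested genes. The mean was 131 ± 0.106 in null and 125 ± 1.99 in control lenses (SD, n = 2 each). Null minus control, the difference was 0.06 on the log2 scale, with an SE of 0.0509 (limma adjusted p = 0.442). Its 95% interval ran from 0.966-fold to 1.12-fold. With the GC and length trend removed the value was -0.05 (95% interval -0.15 to 0.05, limma adjusted p = 0.599), on the other side of 0, and that interval allows a larger loss. In a pool of whole lenses, fewer fiber cells and less RNA per fiber cell cannot be told apart.

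Pla2g16, the organelle phospholipase, was the most abundant of the 4 and the one that was called. It stood at 1188 and 1200.5 scaled reads in the null libraries, against 1042.7 and 1042.7 in the control libraries. The groups did not overlap, and replicates lay close together in both genotypes. Pla2g16 rose 1.15-fold in Tdrd7 null lenses, a log2 fold change of 0.20 (SE 0.0574, 95% interval 0.07 to 0.32, limma adjusted p = 0.0336). That is 1 call among 4 genes, and it was upward, beside 18.0% called over all genes, 10.1% higher and 7.88% lower. With the GC and length trend removed 0 of the 4 genes were called, beside 3.29% of all genes (2.06% higher, 1.24% lower), and Pla2g16 was at 0.11 (limma adjusted p = 0.275). The call was also lost with the total outside the crystallins set equal, at 0.16 (adjusted p = 0.0755). It was also lost without Tdrd7 null replicate 2 (limma adjusted p = 0.0769) and without control replicate 1 or 2 (both 0.166), and with the replicate number as a block (0.0843).

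**Figure D1:**
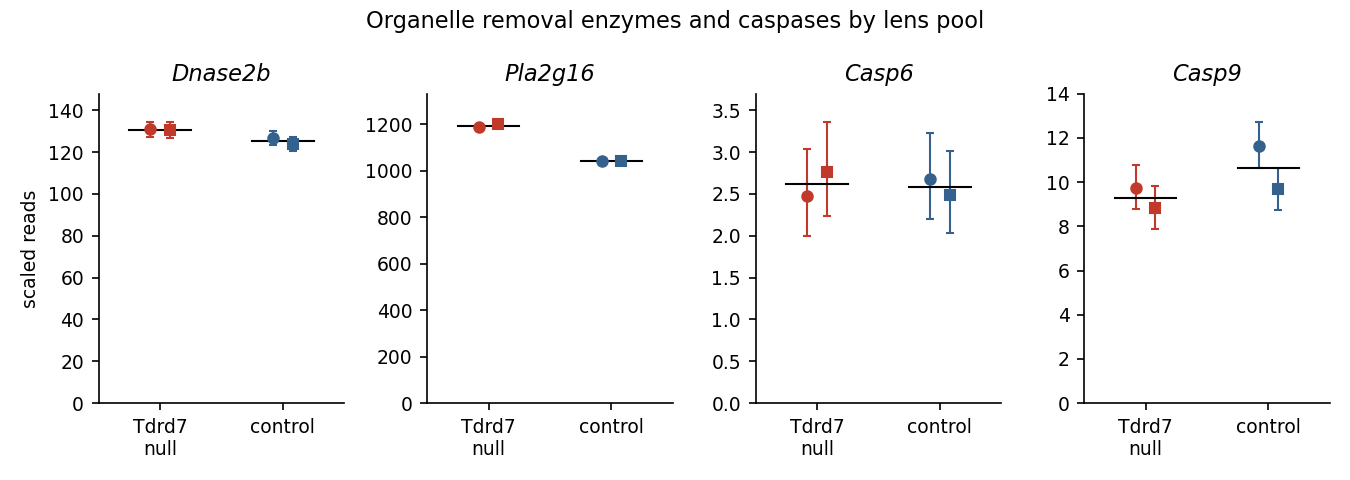
Scaled reads (vertical axis, from 0) of Dnase2b, Pla2g16, Casp6 and Casp9 in each pool of Tdrd7 null (left, red) and control (right, blue) lenses; circles are replicate 1, squares replicate 2, error bars the exact 95% Poisson interval of the reads and black lines group means. Pla2g16 lies at 1188 and 1200.5 in null lenses, against 1042.7 in both control pools, while the Casp6 intervals overlap throughout.

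Casp6, the lamin-cleaving effector caspase, was near the lower end of the table. It reached 2.47 and 2.76 scaled reads in null, against 2.68 and 2.48 in the control libraries. The groups overlapped fully. These values rest on an inferred 93 and 98 reads in null and 111 and 105 reads in control libraries, and counting alone gave null replicate 1 an exact Poisson 95% interval of 2.00 to 3.03. Genotypes differed by 0.01 on the log2 scale, with an SE of 0.116 (limma adjusted p = 0.948) and a 95% interval from 0.848-fold to 1.2-fold. These are folds of scaled reads + 1, which understate those of Casp6 itself. Adding 0.1 in place of 1 gave an SE of 0.157. With the GC and length trend removed the value was 0.02.

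Casp9, the apoptosome's initiator caspase, averaged 9.27 ± 0.653 scaled reads in null and 10.7 ± 1.40 in control lenses (SD, n = 2 each). The pools stood at 9.74 and 8.81 in null, against 11.7 and 9.67 in control, from 313 to 483 reads each. Null replicate 1 lay above control replicate 2, so the groups overlapped. The log2 fold change of Casp9 was -0.18 (SE 0.0960, 95% interval -0.39 to 0.03, limma adjusted p = 0.214). It was -0.08 with the GC and length trend removed and -0.06 without control replicate 1, the highest pool. Casp9 shares 94 nt of exonic sequence with Cela2a and with Ctrc on the opposite strand, and the library kit did not mark strand, although neither of these genes was listed in the table. Casp9 lies on chromosome 4 from 141793612 to 141815976, the chromosome that carries Tdrd7.

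**Figure D2:**
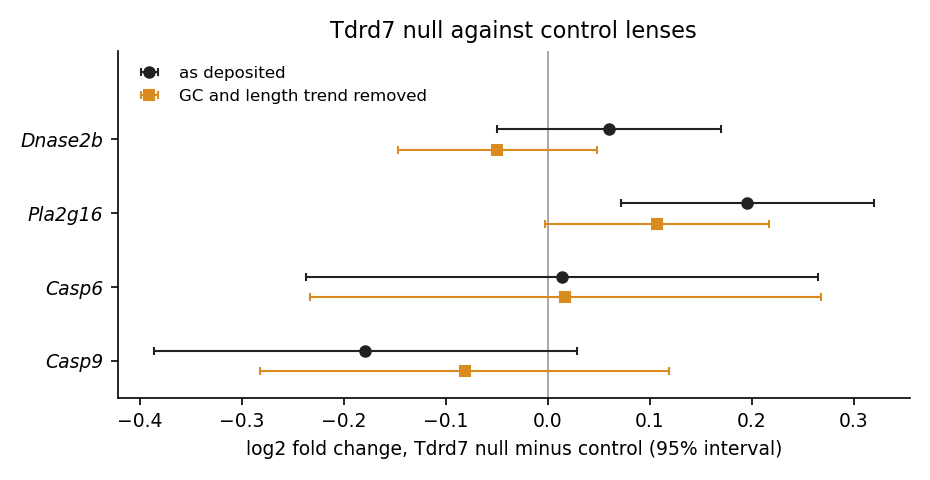
Log2 fold change, Tdrd7 null minus control, with limma's 95% interval (horizontal axis) for the 4 genes, as deposited (black circles) and with the GC and length trend removed (orange squares). Pla2g16 stands at 0.20 and 0.11, and the intervals of Dnase2b, Casp6 and Casp9 include 0 in both.

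The levels of the 4 genes differed far more from each other than between genotypes. Per kilobase of longest transcript, Pla2g16 stood at 339 ± 2.5 scaled reads in null and 296 ± 0.00631 in control lenses (SD, n = 2 each). Dnase2b stood at 48.7 ± 0.0395 and 46.7 ± 0.743, Casp9 at 2.38 ± 0.167 and 2.74 ± 0.359, and Casp6 at 0.669 ± 0.0516 and 0.659 ± 0.0350, null before control. The order was the same in all 4 libraries, and no neighbours in it overlapped. Within a library, the level of Pla2g16 per kilobase was 6.27 to 7.0 times that of Dnase2b. Dnase2b was 15.8 to 21.5 times Casp9, and Casp9 3.21 to 4.37 times Casp6. With the merged length of all exons in place of the longest transcript the order also held, but the ratios differed. The means were then 187, 46.9, 1.78 and 0.469 in null lenses and 163, 45.0, 2.05 and 0.462 in control lenses. Before any correction for length, 95.6% of tested genes lay below Dnase2b and 99.6% below Pla2g16, but 13.2% below Casp6 and 44.9% below Casp9.

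**Figure D3:**
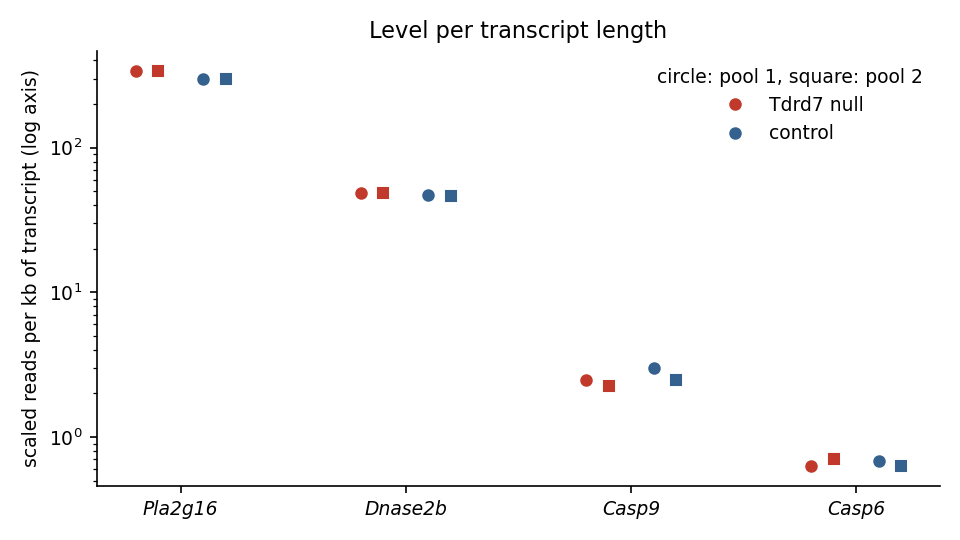
Scaled reads per kilobase of longest transcript (log axis) for the 4 genes in Tdrd7 null (red, left of each pair) and control (blue) pools; circles are replicate 1, squares replicate 2. Pla2g16 lies at 339 in null and 296 in control lenses, while Casp9 and Casp6 lie below 3.

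Dnase2b held most reads of the nucleases in the table. Of 18 listed DNases and apoptotic nucleases 11 were in the table. Of these 0 rose and 1 fell, beside 18.0% of all genes called, and the median log2 fold change was 0.02. Over all tested genes the median was -0.005. The gene that fell was Exog, a mitochondrial nuclease, at 1.73 and 2.00 scaled reads in null libraries and 2.65 and 2.84 in control libraries (log2 fold change -0.39, limma adjusted p = 0.0416), and it lost its call with the GC and length trend removed (-0.35, adjusted p = 0.136). Dnase2b took 58.8% and 58.6% of the list's scaled reads in null libraries, against 57.7% and 57.9% in control libraries. The other genes named as DNases in the table, Dnase1 and Dnase1l1, were low. Dnase1, which shares 504 nt with an antisense gene and 54 nt with Trap1 on the opposite strand, averaged 1.79 ± 0.0248 in null and 2.08 ± 0.0626 in control lenses, and Dnase1l1 averaged 1.46 ± 0.000762 in null and 1.43 ± 0.0139 in control lenses (SD, n = 2 each). Dffb, the nuclease that caspases release in apoptosis, was at -0.24 and its inhibitor Dffa at -0.03, and neither passed. Dnase2a and Endog were not in the table.

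Pla2g16 likewise dominated its list of phospholipases and related lipases. Of 29 listed genes 20 were in the table. Of these 3 rose and 3 fell, beside 18.0% of all genes called, and the median log2 fold change was -0.07. Pla2g16 and Pnpla8, a mitochondrial phospholipase (0.30), rose, as did Pafah1b2 (0.19). Pnpla2, the lipase of triglyceride stores (-0.41), Pla2g6, a calcium-independent phospholipase (-0.35), and Pla2g7, a secreted enzyme (-0.21), fell. With the GC and length trend removed 0 passed limma, beside 3.29% of all genes. Pla2g16 took 65.3% and 64.0% of the list's scaled reads in null libraries, against 59.9% and 60.7% in control libraries (exact permutation p = 0.33, two-sided), a value that cannot be lower with 2 pools against 2. Hrasls, which encodes the related PLAAT1, was close to the lowest values in the table, at 1.01 and 1.13 scaled reads in null and 1.09 and 1.30 in control libraries. In fish, PLAAT1 is the family member that degrades lens organelles.

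Of 11 genes for breakdown of DNA and organelles, all in the table, 2 rose and 0 fell (median log2 fold change 0.06), beside 18.0% of all genes called. They were Pla2g16 and Bnip3l, the mitophagy receptor also called NIX, at 231 and 230 scaled reads in null libraries and 184 in both control libraries. Bnip3l had a log2 fold change of 0.33 (limma adjusted p = 0.00199), and 0.17 with the GC and length trend removed (adjusted p = 0.0606). The autophagy adaptor Fyco1, which is mutated in human cataract, was at 0.01, although it shares 402 nt with a transcript on its own strand.

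Of 29 listed regulators of denucleation 27 were in the table, and 2 rose and 4 fell, Tdrd7 among these (median log2 fold change 0.01), beside 18.0% of all genes called. Tdrd7 alone was called with the GC and length trend removed. Hsf4 fell, at 167 and 155 scaled reads in null libraries and 194 and 196 in control libraries, which is -0.27 on the log2 scale with an SE of 0.0546 (limma adjusted p = 0.00623). The call was lost without control replicate 1 (0.0579) or control replicate 2 (0.0565). Beside it stands Dnase2b, its known target, at 0.06 with a 95% interval of -0.05 to 0.17. With the GC and length trend removed Hsf4 was at -0.08 (limma adjusted p = 0.373) and Dnase2b at -0.05. Pitx3 (-0.38) and Foxe3 (-0.43), transcription factors of the lens, also fell, and the ubiquitin-conjugating enzyme Ube2d3 (0.31) and the actin regulator Abi2 (0.25) rose. These 4 lost their calls as well with the GC and length trend removed, at -0.10, -0.13, 0.11 and 0.14. Cdk1, the kinase that phosphorylates lamins in fiber denucleation, was at 0.12 and its inhibitor Cdkn1b at 0.12, and neither passed.

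The partners of caspase-9 differed in direction. Of 19 listed genes of the apoptosome and of mitochondrial release 14 were in the table. Of these 3 rose and 1 fell (median log2 fold change 0.10), beside 18.0% of all genes called. Cycs, which encodes cytochrome c, rose, at 13.1 and 13.2 scaled reads in null libraries and 9.96 and 11.4 in control libraries (log2 fold change 0.28, limma adjusted p = 0.0362), and lost its call without any 1 of the 4 libraries. The outer membrane channel Vdac3 (0.28) and the chaperone Hspa4 (0.19) rose and the apoptosome inhibitor Aven (-0.35) fell, and Aven shares 916 nt with Ryr3 on the opposite strand. With the GC and length trend removed 0 passed, beside 3.29% of all genes, and Cycs was at 0.09. Apaf1, the scaffold of the apoptosome, was at 0.22 and did not pass (limma adjusted p = 0.124).

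The list of apoptosis inhibitors and the Bcl2 family each held 1 gene whose call outlasted removal of the GC trend. After that removal 3.29% of all genes were called. Of 15 genes in the inhibitor list 9 were in the table. Of these 2 rose and 1 fell, beside 18.0% of all genes called. The median log2 fold change was 0.16, and 0.02 with the GC and length trend removed. Over all tested genes these medians were -0.005 and 0.004. Cflar, which blocks caspase-8, stood at 20.7 and 22.3 scaled reads in null libraries and 15.7 and 16.7 in control libraries. It rose by a log2 fold change of 0.39 (limma adjusted p = 0.00448), and by 0.32 with the GC and length trend removed (adjusted p = 0.0224), but lost its call without control replicate 1 (0.0583). Xiap, a direct inhibitor of caspase-9, rose by 0.31 (adjusted p = 0.0124) and was at 0.10 with the trend removed. The gene that fell, Aatk (-0.39), encodes a kinase and not a direct inhibitor of caspases, and it was at -0.13 with the trend removed. Birc7, an inhibitor abundant in the lens, was at -0.08. Of 24 Bcl2 family genes 18 were in the table, and 2 rose and 0 fell, beside 18.0% of all genes called. The 2 were Bnip3 (0.46) and Bnip3l, both mitophagy receptors, with Bnip3 still called at 0.26 once the trend was removed. Bnip3 shares 504 nt with an antisense gene. Bcl2 (0.10), Bcl2l1 (-0.11) and Bax (0.02) did not pass.

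Of 20 nuclear lamina and envelope genes 19 were in the table, and 1 rose and 2 fell (median log2 fold change 0.03), beside 18.0% of all genes called. Zmpste24, the protease that matures lamin A, rose (0.31), and Lemd2 (-0.23) and Icmt (-0.21) fell, and 0 of the 3 kept the call with the GC and length trend removed. Lmna, which encodes lamin A and C, was at -0.24 (limma adjusted p = 0.0843), and Lmnb1 and Lmnb2 were at 0.03 and 0.04. Of 15 substrates 14 were in the table and 0 were called by limma. With the trend removed 1 of the 14 was called, beside 3.29% of all genes. That was Vim, which encodes vimentin, lower at -0.24 (limma adjusted p = 0.0472, against -0.17 and 0.0781 before). Its call was not followed through the other fits. Over all 10 lists 26 of 134 genes were called, 19.4% beside the 18.0% of all genes. The 26 include Tdrd7, the targeted gene, and the lists include the caspases, some of which are not reported here.

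**Figure D4:**
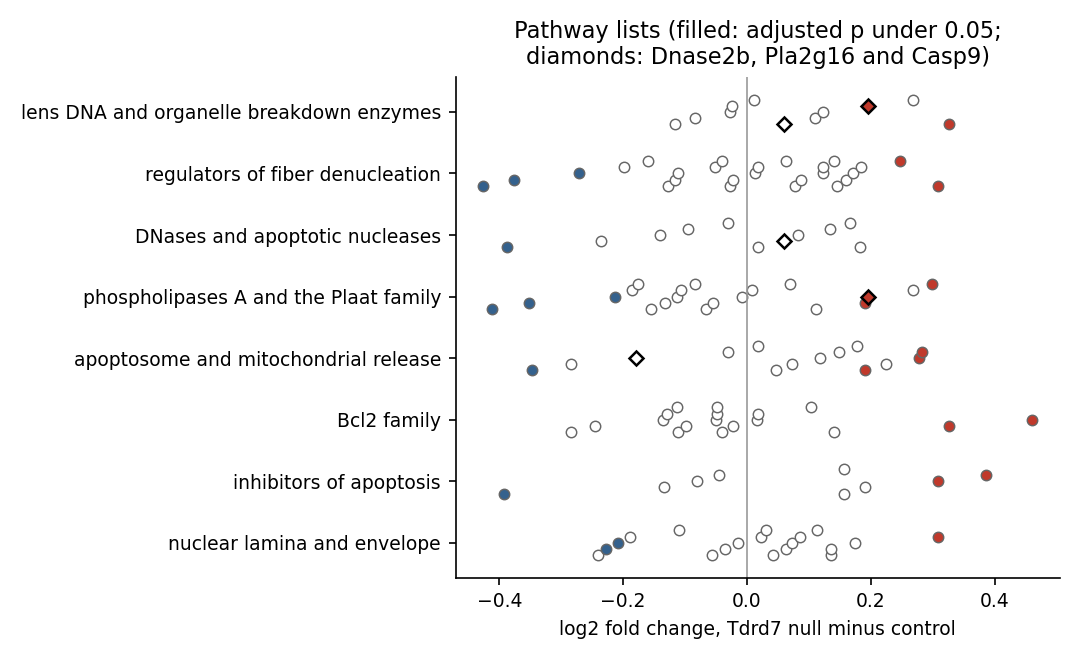
Log2 fold change, Tdrd7 null minus control (horizontal axis), of each gene in 8 pathway lists (rows), Tdrd7 left out; filled symbols passed limma at an adjusted p under 0.05 (red higher, blue lower), open ones did not, and diamonds are Dnase2b, Pla2g16 and Casp9, which these lists hold. Pla2g16 is filled at 0.20, and Dnase2b and Casp9 are open.

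The 4 genes differed in GC content, and genes of like GC content shifted with it. The longest transcripts of Dnase2b and Pla2g16 had 44.8% and 44.9% GC, that of Casp6 48.6% and that of Casp9 53.4%. Within 1 percentage point of GC the median log2 fold change was 0.09 over 1067 genes around Dnase2b, 0.09 over 1070 around Pla2g16, 0.01 over 1136 around Casp6 and -0.08 over 1109 around Casp9. Relative to those medians Pla2g16 lay 0.11 higher, Dnase2b 0.03 lower, Casp9 0.10 lower and Casp6 at 0.00. The part of the GC trend in the differences between genotypes was not tested beyond its removal.

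**Figure D5:**
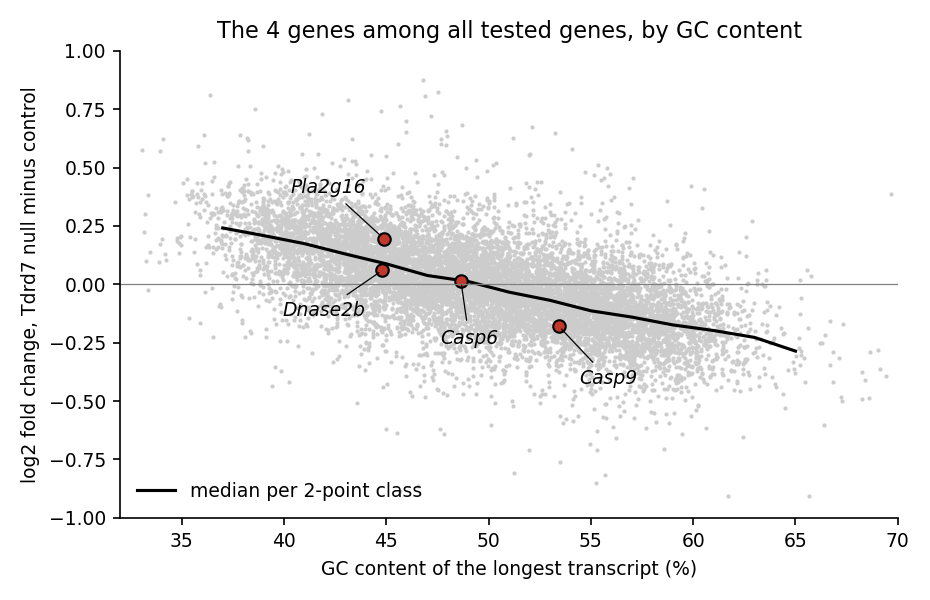
Log2 fold change, Tdrd7 null minus control, against GC content of the longest transcript for all tested genes within 1 log2 unit of 0 (grey), with the median per GC class (line), and the 4 genes (red). The line passes close to Dnase2b and Casp6, and Pla2g16 lies 0.11 above the median of its GC window.

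Markers of fibers and epithelium held single genes that changed more than any of the 4. Of the fiber markers Hmx1 (-0.49), Hsf4 (-0.27), 1 of 2 gene IDs for Lim2 (-0.25) and Tdrd7 fell, and Caprin2 (0.24) rose. Of the epithelial markers Foxe3 (-0.43) and Slc2a1 (-0.27) fell, and Gja1 (0.33) and Top2a (0.29) rose. Apart from Tdrd7, and from Lim2, for which no value with the GC and length trend removed was at hand, these calls were lost with that trend removed. The summed level of 13 measured epithelial markers was 1082 to 1096 scaled reads in null libraries and 1103 to 1110 in control libraries. The sum of the 20 fiber markers, which crystallins dominate, was 178045 to 190954 in null and 179978 to 189831 in control libraries. Over the summed fiber markers other than crystallins, Pla2g16 was 0.19 higher in null lenses on the log2 scale, Dnase2b 0.06 higher, Casp6 0.02 higher and Casp9 0.20 lower (exact permutation p = 0.33, 0.33, 1 and 0.33, two-sided, where 0.33 is again the smallest possible). Bfsp1 and Mip stood highest in that sum, at means of 9725 and 4754 in null and 8715 and 4939 in control lenses. Tdrd7 is itself in that sum, and without it the differences were 0.13, -0.01, -0.05 and -0.27. Markers of macrophages, red blood cells and neural retina were not in the table at all. Of 11 endothelial markers 8 were in the table, summing to 16.6 to 24.0 in null and 12.9 to 23.0 in control libraries. Of 8 pericyte markers 5 summed to 33.7 to 36.8 in null and 38.8 to 48.9 in control libraries. Notch3 (-0.50) and Pdgfrb (-0.34) fell, while Rgs5 (0.35), Abcc9 (0.13) and Anpep (-0.05) were not called. Of 14 ciliary body, iris and pigment markers 4 summed to 95 to 99.6 in null and 114 to 118 in control libraries. Mfap2 (-0.29) and Mfap4 (-0.21) fell, while Opn3 (-0.17) and Tyrp1 (0.18) were not called. Notch3, Pdgfrb, Mfap2 and Mfap4 lost their calls with the GC and length trend removed. The 1 muscle marker in the table of 9 stood at 2.70 to 3.06 in null and 3.40 to 3.6 in control libraries. The part of these cells in the results was not tested.

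The genes whose values over the 4 libraries ran closest to each member are given as a description. Likeness was the root mean square distance between log2 deviations from each gene's own mean, among genes at 0.5 to 2 times the member's level. Of 941 candidates Tspan3, Psat1 and Pcmt1 lay closest to Dnase2b, at distances of 0.00706 to 0.00858. Of 61 candidates Eif5b, Nap1l4 and Ddx5 lay closest to Pla2g16, at 0.0208 to 0.0233. Of 2594 candidates Zmym1, Acvr1 and Tube1 lay closest to Casp6, at 0.0134 to 0.0153. Of 4162 candidates Faxc, Fads2 and Klf11 lay closest to Casp9, at 0.00449 to 0.0141.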

How the data were processed

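The submitters' processing notes list Trimmomatic, TopHat2 (2.0.9), Cufflinks, Cuffnorm and the mm10 (GRCm38) build, without saying which made the table, and name no read counter. The deposited signal values are read counts divided by 1 factor per library: all lay within 0.001 reads of whole multiples of 1 step per library (0.0266 and 0.0282 for Tdrd7 null, 0.0241 and 0.0237 for control). Factors by the trimmed mean of M values, computed here, matched the deposited scaling within 9.85e-09%. Low genes are absent from the table: no gene's highest value was below 1.02.

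The 10696 genes whose mean was 1 or more were tested on the log2(scaled reads + 1) scale with limma 3.58.1 in R 4.3.3 (intensity-dependent prior, two-sided, 2 residual and 11.1 prior degrees of freedom), and called at a Benjamini-Hochberg adjusted p under 0.05. A fold change on this scale understates that of low genes, such as Casp6. Exact permutation tests used SciPy 1.17.1. Transcript GC content and length were those of the longest GENCODE M21 transcript, known for 10750 of 10790 genes, and each library's trend on both was removed with natural splines of 5 degrees of freedom. Poisson intervals cover counting error only. Named genes are the 4, Tdrd7, the called genes of each list by smallest p (at most 5) and a set of partners. The 4 genes, the lists and the partners were chosen with earlier results of these data known. Read numbers given here are multiples of that step. The planned count models on them were not run: with low genes absent, the table holds no value of 1 read against which the step could be checked. Some genes of the caspase family are not reported here.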

Additional observations from a re-analysis of the deposited data

How the results depend on the processing

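Of 17 alternatives, 9 called Pla2g16, with the log2 fold change between 0.11 and 0.20 and the limma adjusted p between 0.00316 and 0.343. Calls were lost at 0.16 with the total outside the crystallins set equal, at 0.20 without the intensity trend (adjusted p = 0.115), at 0.20 with the replicate block, at 0.11 with the GC and length trend removed and at 0.11 with both block and trend removal. Leaving out 1 library gave 0.19 to 0.20. The 9 calls include that of a crossed pairing of replicate numbers, chosen after seeing the data, which gave the limma adjusted p of 0.00316. They also include scaling by the trimmed mean of M values, which repeats the fit reported above. Dnase2b turned to -0.0496 with the GC and length trend removed, with or without the replicate block, and leaving out 1 library gave 0.04 to 0.08. Casp6 turned to -0.0153 with the total outside the crystallins set equal, and leaving out 1 library gave -0.0430 to 0.0709. Casp9 stayed negative, at -0.30 to -0.06, and was called by 0 of 17 alternatives. None of the 17 called Dnase2b and none of 16 called Casp6, which a minimum mean of 5 left out (as it did Exog). Relative to fiber markers, leaving out 1 library gave -0.0790 to 0.110 for Casp6, and without the targeted gene in the sum Dnase2b was at -0.0103 and Casp6 at -0.0515. The 1920 calls became 16 without the intensity trend, 351 with the GC and length trend removed, 583 with both block and trend removal, and 404 to 2136 without 1 library (902 without Tdrd7 null replicate 2, 404 without control replicate 1, 535 without control replicate 2). The 26 called list genes became 1, 5, 9 and 8 to 30 in these fits. Of the called genes named from the pathway lists, Tdrd7, Bnip3, Bnip3l, Pitx3, Foxe3 and Ube2d3 kept their call without each library in turn. The other named genes of these lists, apart from Vim, lost theirs without at least 1 library. Called genes named only as cell type markers were not followed through these fits. Tdrd7 itself had a limma adjusted p of 0.0555 with a robust prior. Deviations of same-numbered replicates from their group means had a Pearson's r of -0.151 across genes, and crossed numbers had 0.151. With 2 libraries per genotype these are 1 value with opposite signs, so it cannot decide whether replicates were paired. With the replicate block 2117 genes were called, and a crossed pairing, chosen after seeing the data, called 3036 genes and 41 list genes. Scaling by the trimmed mean of M values changed nothing, since the deposited values already carry it. The count models on recovered reads were not run. Of the 4 genes Casp6 had the fewest reads, 93 to 111 per library. The causes of these changes were not tested.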
